A study of Mus musculus with 4 samples.

Results

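Transcripts of 6 genes best known from the myelin sheath (Mbp, Mobp, Mag, Mog, Cldn11 and Ptgds) were followed through mouse spinal cord cells that had been sorted for an astrocyte label and that held no cluster of oligodendrocytes. The genes were taken by name from the gene rows of both count matrices, and all 6 were found once among 32287 gene features. The values describe how much of each transcript lay in each class of sorted cells, whether the counts followed the depth of a cell, whether single cells carried them, and whether classes known to take up myelin held more.

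Myelin is the layered membrane that oligodendrocytes wrap around axons. Mbp encodes the basic protein that holds the cytoplasmic faces of the membrane together, and Mobp encodes a smaller basic protein of the same layers. Mag is an adhesion molecule of the membrane facing the axon, Mog lies on the outermost surface, and Cldn11 forms the tight junctions between the turns. Ptgds, a prostaglandin D synthase secreted into the cerebrospinal fluid, is made by oligodendrocytes but also by fibroblasts of the meninges. After an injury, microglia and macrophages clear the debris of broken myelin, and oligodendrocytes are a usual source of RNA that leaks into a cell suspension. For these reasons Ptgds was kept apart, and the other 5 genes were also added up as a myelin sum.

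Positions were those of the GRCm38 (mm10) annotation. Mbp (ENSMUSG00000041607) spans chr18:82475146-82585637 on the plus strand, Mobp (ENSMUSG00000032517) chr9:120149707-120181484 on the plus strand and Mag (ENSMUSG00000036634) chr7:30899176-30914873 on the minus strand. Mog (ENSMUSG00000076439) spans chr17:37010743-37023398 on the minus strand, Cldn11 (ENSMUSG00000037625) chr3:31149920-31164324 on the plus strand and Ptgds (ENSMUSG00000015090) chr2:25466709-25470046 on the minus strand. No other gene counted in the matrices overlapped a member. The Mbp locus also gives longer transcripts, called golli, that share exons with the myelin forms and are known from immune cells. They are counted under the same identifier, so the Mbp counts below do not tell the forms apart.

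The cells came from Cx30-tdTomato mice, in which a tamoxifen-inducible Cre driven by Cx30, a gap junction gene of astrocytes, switches on the red reporter, so that what was sorted depends on where and when that driver was active. All animals, 8 to 12 weeks old on entry and of both sexes, had received an AAV library of enhancer reporters in the blood 14 days before surgery, the uninjured controls included. The injured group was taken 3 days after a spinal cord contusion and the uninjured group without one, in each case as a 5 mm segment cleared of the meninges, digested with papain and sorted for tdTomato. Each group was 1 gene expression library of pooled animals, 1 to 2 per sex, so no difference below has a replicate check and no test was made.

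The injured library held 919 cell barcodes and the uninjured library 4159, and 7 barcodes occurred in both. After cells with at most 500 or at least 50000 UMIs (unique molecular identifiers, each standing for 1 captured transcript) were left out, 879 injured cells with a median of 6816 gene UMIs and 4159 uninjured cells with a median of 3343 remained. Clustering without the 6 genes gave 15 clusters, of which 13 were named from markers. The astrocyte-like class (409 injured and 3021 uninjured cells) showed all 8 of its markers in each of its 6 clusters. Microglia-like (128 and 31), ependymal-like (144 and 31), OPC-like (oligodendrocyte precursor, 41 and 14), endothelial-like (70 and 26), fibroblast-like (43 and 95) and mural-like cells (13 and 3) made up the other classes. The microglia, endothelial, OPC, ependymal, mural and fibroblast clusters likewise each showed every marker of their list. No cluster was led by oligodendrocyte markers. Unnamed cluster 4 (11 and 663 cells) and unnamed cluster 5 (20 and 275 cells) carried all 8 astrocyte markers but had Nefl, or Snap25 and Nefl, neuronal genes, among the genes that set them apart, and were left out of the astrocyte-like class. The injured astrocyte-like cells lay mostly in cluster 1 (316 of 409), led by Gfap and Vim, whereas only 13 uninjured cells did.

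Levels are given as UMIs per 1000000 gene UMIs of a class (CPM), with an exact Poisson 95% interval. Shares of cells carry an exact Clopper-Pearson interval and ratios an exact conditional binomial interval, all covering counting error only. A count of 3 was taken as the floor.

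In the astrocyte-like class Mbp stood at nearly the same level in both libraries when counts were summed. It had 65 UMIs in 49 of 409 injured cells and 319 UMIs in 278 of 3021 uninjured cells, which made 28.9 CPM (22.3 to 36.8) and 28.7 CPM (25.7 to 32.1). The ratio of injured over uninjured was 1.01 (0.758 to 1.32), so a difference within that interval could not be resolved at this depth. With every cell thinned to 1000 UMIs it was 1.93 (1.19 to 3.01), from 25 and 102 UMIs. Mobp gave 12 and 44 UMIs, or 5.34 CPM (2.76 to 9.32) and 3.97 CPM (2.88 to 5.32), with intervals that overlapped. Mog was the rarest, with 2 and 18 UMIs, and its injured count lay below the floor.

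Mag and Cldn11 went opposite ways between the libraries. Mag gave 4 UMIs in 4 injured cells and 51 UMIs in 50 uninjured cells, a ratio of 0.387 whose interval (0.102 to 1.05) reached past 1. Cldn11 gave 17 UMIs in 12 injured cells (7.56 CPM, 4.40 to 12.1) and 25 UMIs in 24 uninjured cells (2.25 CPM, 1.46 to 3.33), a ratio of 3.36 (1.70 to 6.47). Of the 17 injured Cldn11 UMIs, 14 were in the deepest of 3 equal groups of cells. Without cells holding 3 or more UMIs of the 10 oligodendrocyte markers, 4 injured and 22 uninjured UMIs were left, and the ratio was 1.26 (0.316 to 3.72). That step removed 98 of 409 injured and 410 of 3021 uninjured cells, and the part of depth in it was not tested.

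Ptgds was lower in the injured astrocyte-like cells when counts were summed. It had 38 UMIs in 29 injured cells, 16.9 CPM (11.96 to 23.2), and 331 UMIs in 262 uninjured cells, 29.8 CPM (26.7 to 33.2). The ratio was 0.566 (0.394 to 0.794). With the unnamed clusters counted as astrocyte-like it was 0.319 (0.236 to 0.423). Some neuronal transcripts were lower in the same comparison, with Snap25 at 0.475 (0.324 to 0.677) and 4 of 9 neuron markers 2-fold or more lower (2 were higher), at a median log2 ratio of -0.98, while the summed neuron markers were higher (1.93, 1.74 to 2.14). Their part in the Ptgds difference was not tested. The myelin sum had 100 and 457 UMIs, 44.5 CPM (36.2 to 54.1) in injured and 41.2 CPM (37.5 to 45.1) in uninjured cells, a ratio of 1.08 (0.861 to 1.34).

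Of the 6 genes, all had at least 20 UMIs in the 2 groups together. Cldn11 alone was 2-fold or more higher in injured astrocyte-like cells, where 14.9% of 13288 genes were, and Mag alone was 2-fold or more lower, where 11.8% were. Read against those shares, neither count sets the 6 genes apart. Among 20 other oligodendrocyte genes 14 could be compared, of which 6, among them Bcas1, Cnp and Tspan2, were 2-fold or more higher and Opalin was lower, with a median log2 ratio of 0.58 against -0.01 over all genes compared. In injured astrocyte-like cells Bcas1 gave 76 UMIs in 13 cells and Pllp, also among the 6, 42 UMIs in 12. There Cnp was more widely spread, with 290 UMIs in 138 cells. Cnp, an enzyme of the myelin cytoplasm, stood at 129 CPM (114 to 145) in injured and 64.2 CPM (59.6 to 69.2) in uninjured cells. Of 22 phagocytosis genes 18 could be compared in the same cells, with 7 at 2-fold or more higher (Cd68, Gpnmb, Lgals3, Lpl, Pros1, Spp1 and Tyrobp) and Gulp1 lower.

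**Figure D1:**
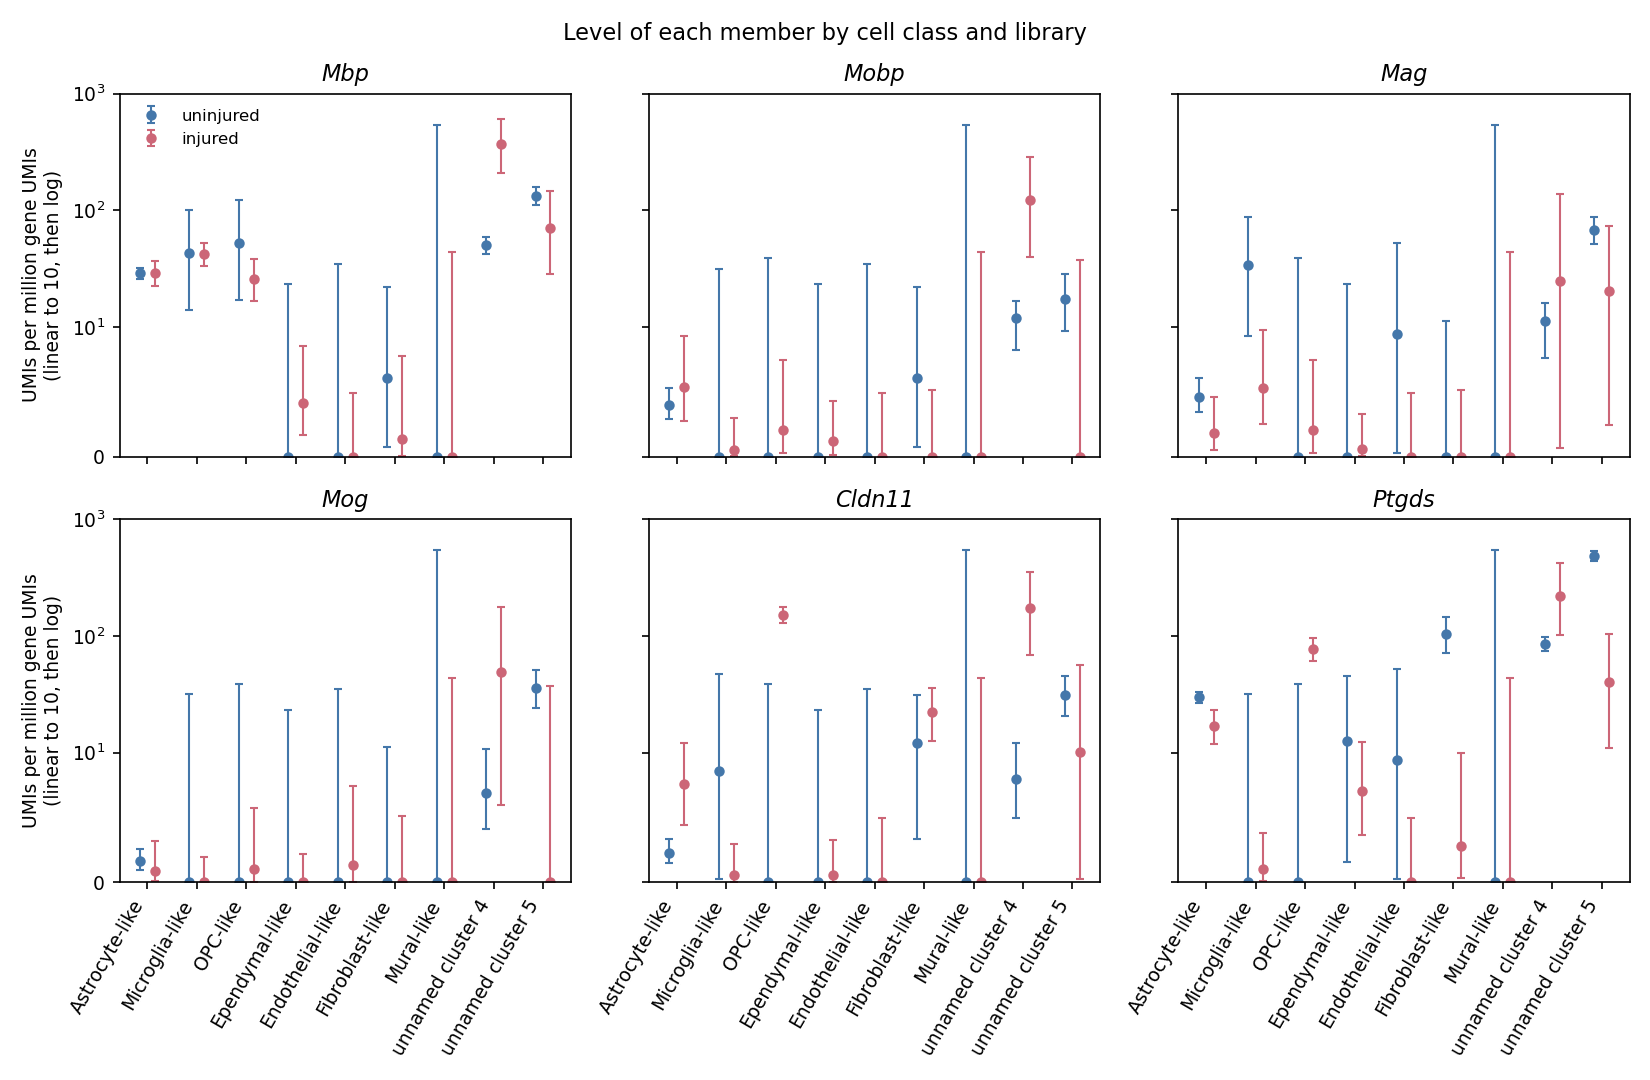
UMIs per 1000000 gene UMIs (y axis, linear up to 10 and logarithmic above) of each of the 6 genes in each cell class, with blue points for the uninjured and red points for the injured library and bars for the exact Poisson 95% interval. Mbp lies at 28.9 and 28.7 CPM in astrocyte-like cells and at 42.3 CPM in injured microglia-like cells, Cldn11 is highest among the named classes at 152 CPM in injured OPC-like cells, and Ptgds reaches 482 CPM in uninjured unnamed cluster 5.

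The levels varied between astrocyte-like clusters. Among the 5 clusters that held nearly all uninjured cells of the class, Mbp ran from 14.8 CPM (10.2 to 20.8) in cluster 8 through 22.4 CPM in cluster 7, 29.8 CPM in cluster 13 and 30.8 CPM in cluster 11 to 57.3 CPM (43.4 to 74.2) in cluster 6, which was led by mitochondrial transcripts. The intervals of clusters 13 and 11 overlapped, whereas those of clusters 8 and 6 did not. Among the same 5 clusters Ptgds was likewise highest in cluster 6, at 66.4 CPM (51.3 to 84.4), and lowest in cluster 7, at 14.9 CPM (10.1 to 21.3). The 13 uninjured cells of cluster 1 stood higher still by point value, at 113 CPM of Mbp (51.8 to 215, from 9 UMIs) and 75.5 CPM of Ptgds (27.7 to 164, from 6 UMIs), with intervals that overlapped those of cluster 6. The 9 neuron markers, transcripts that sorted glia should also lack, summed to 355 CPM in cluster 6 against 57.7 to 125.5 CPM in clusters 7, 8, 11 and 13. The median depth of uninjured cluster 6 was 1734 UMIs and 18.0% of its UMIs over both libraries were mitochondrial. Left out, cluster 6 changed the injured-over-uninjured ratio of the myelin sum to 1.12 (0.876 to 1.42).

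Depth was examined by dividing each class into 3 equal groups of cells by gene UMIs. If a transcript made up a fixed part of a cell's RNA, its UMIs per cell would climb with depth, and its CPM would stay level. In uninjured astrocyte-like cells mean depth was 3.43 times higher in the highest than in the lowest depth group, and the UMIs per cell of the summed astrocyte markers were 3.61 times higher (3.55 to 3.66). Mbp climbed by less, 2.32 times (1.74 to 3.13), as did Ptgds, 2.26 times (1.72 to 2.98), and the myelin sum, 2.03 times (1.60 to 2.58). The upper limits of all 3 lay below the ratio of depths.

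The gap was wider in injured astrocyte-like cells, where mean depth was 7.56 times higher in the highest depth group. Mbp had 19 UMIs in the 137 shallowest cells, 23 in the 136 of the middle group and 23 in the 136 deepest, so that its UMIs per cell were 1.22 times higher (0.635 to 2.37). Its level went from 93.2 CPM (56.1 to 145) to 44.7 CPM (28.3 to 67.1) and 15.02 CPM (9.52 to 22.5). The number of Mbp UMIs in a shallow and in a deep injured astrocyte-like cell thus did not differ beyond counting error. Ptgds was similar, with 8, 16 and 14 UMIs and a ratio of 1.76 (0.690 to 4.85). Cldn11 was not, with 1, 2 and 14 UMIs and a ratio of 14.1 (2.15 to 596), the neuron markers gave 7.39 (5.40 to 10.3), and the astrocyte markers gave 14.7 (13.9 to 15.6). In the uninjured class, by contrast, the neuron markers fell short of depth as Mbp did, at 1.84 (1.61 to 2.12), and Cldn11 gave 1.22 (0.460 to 3.34).

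**Figure D2:**
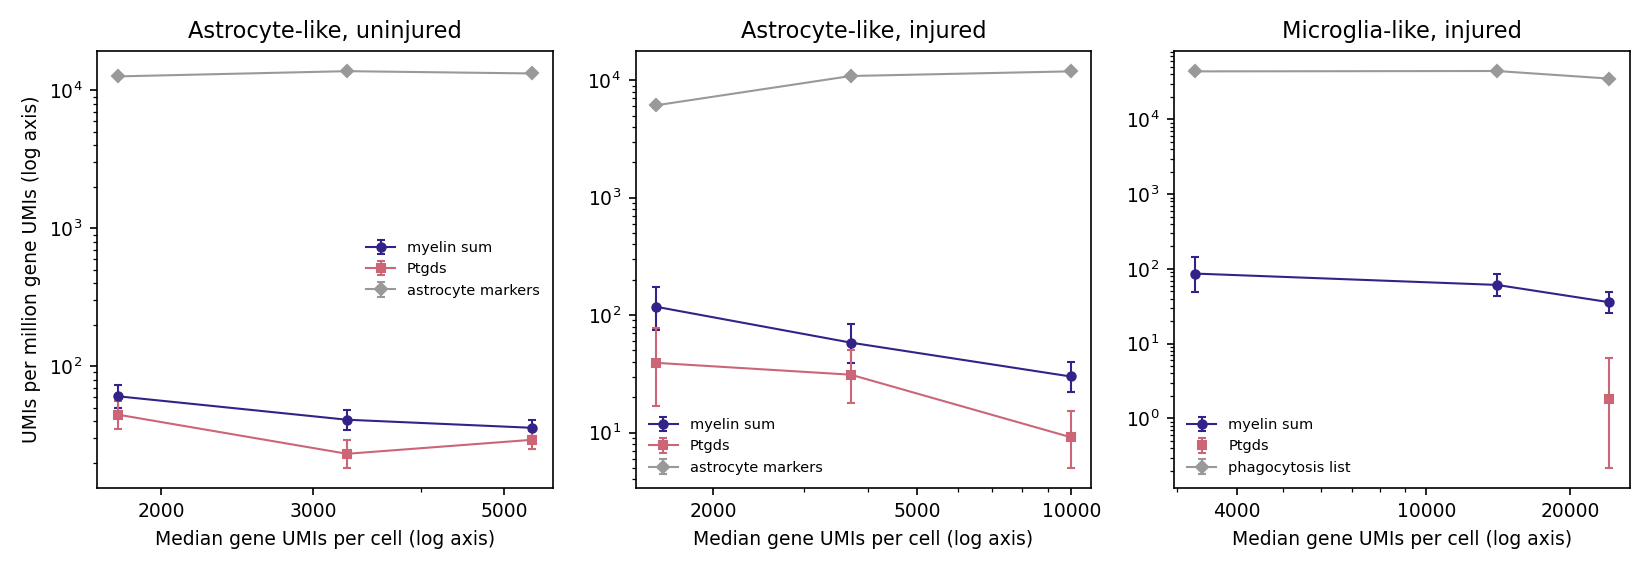
UMIs per 1000000 gene UMIs (y axis, log) against the median gene UMIs per cell (x axis, log) of the lowest, middle and highest depth group, for the myelin sum, Ptgds and a list of the class's own genes, with exact Poisson 95% intervals. The myelin sum goes from 118 to 30.05 CPM in injured astrocyte-like cells and from 60.5 to 35.7 CPM in uninjured ones, and in microglia-like cells points at 0 are not drawn.

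In the astrocyte-like class no single cell carried much of the myelin sum. The number of astrocyte-like cells with a myelin UMI was set beside the number that would have had one if the same UMIs had fallen on cells in proportion to depth. In the injured library 68 cells had one against 80.8 expected, a ratio of 0.841, and in the uninjured library 379 against 415, a ratio of 0.914. The 3 richest cells held 13 of 100 injured and 11 of 457 uninjured myelin UMIs, and no astrocyte-like cell held more than 5. Of the 49 injured cells with Mbp, 38 had 1 UMI, 8 had 2 and 3 had 3 or more. By point value, fewer cells than expected thus held the UMIs in both libraries. No interval is set on these ratios here, so a departure beyond counting error is not claimed. Because the myelin sum fell short of depth in both libraries, these ratios alone do not tell whether rich cells carried it.

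Microglia-like cells, a phagocytic class, held Mbp and some Mag but hardly any of the other members. Lyz2, a macrophage marker, was among the leading genes of their cluster, so resident and infiltrating cells were not told apart. In the injured library Mbp gave 80 UMIs in 45 of 128 cells, 42.3 CPM (33.5 to 52.6), and the richest cell held 8. Mag gave 10 UMIs in 9 cells, 5.29 CPM (2.54 to 9.72), Mobp and Cldn11 1 UMI each, Mog none (up to 1.95 CPM) and Ptgds 2.

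Against injured astrocyte-like cells, the microglia-like level was 1.46-fold for Mbp (1.04 to 2.06) and 1.09-fold for the myelin sum (0.815 to 1.47). It was 2.97-fold for Mag, with an interval whose lower bound, 0.858, was below 1, and 0.0626-fold for Ptgds (0.00732 to 0.242) and 0.0700-fold for Cldn11 (0.00167 to 0.447). The Mbp interval reached below 1 (1.30, 0.875 to 1.97) without cells holding 3 or more oligodendrocyte marker UMIs. Of the 6 genes only Mbp and Ptgds had the 20 UMIs needed for the count, 0 at 2-fold or more higher beside 19.3% of 11552 genes, and Ptgds at 2-fold or more lower beside 33.7%. All 8 of the 20 other oligodendrocyte genes that could be compared were 2-fold or more lower in microglia-like cells (among them Aspa, Bcas1 and Cnp), with a median log2 ratio of -5.44 against -0.28 over all genes. The 5 neuron markers that could be compared were lower as well. Of the 22 phagocytosis genes 15 were 2-fold or more higher, among them Cd68, Trem2 and Apoe, and 3 were lower (Gulp1, Megf10 and Mfge8). Tyrobp, among the 15, was also in the marker list that named the microglia-like class.

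Because microglia-like cells were deeper (a median of 13724 gene UMIs against 3703), the share of cells with Mbp, 35.2% (26.9 to 44.1) against 11.98% (8.996 to 15.5), cannot be compared directly. After each cell was thinned to 1000 UMIs, with 7 microglia-like and 33 astrocyte-like cells too shallow to be kept, 4.13% of microglia-like and 5.32% of astrocyte-like cells had a UMI of Mbp. Thinning also put the Mbp ratio on the other side of 1, at 0.621 (0.186 to 1.65), from 5 and 25 UMIs. The direction of the Mbp ratio was therefore not fixed by these counts. At like depth without thinning, the microglia-like depth group with a median of 3270 gene UMIs stood at 81.0 CPM (44.3 to 136). The astrocyte-like group with a median of 3709 stood at 44.7 CPM (28.3 to 67.1), and the intervals overlapped. The deepest astrocyte-like group, with a median of 9965, stood at 15.02 CPM (9.52 to 22.5). Deeper still, the microglia-like group with a median of 14062 stood at 57.9 CPM (40.3 to 80.5), without overlap. The one with a median of 24170 stood at 27.8 CPM (18.9 to 39.5), with overlap. Within microglia-like cells, too, Mbp fell short of depth, with 2.27 times more UMIs per cell (1.17 to 4.61) in the highest than in the lowest depth group against a 6.59-fold difference in mean depth.

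Endothelial-like and ependymal-like cells of the same library had much less. Both were deeper at the median than astrocyte-like cells (7972 and 10505 gene UMIs), and the Mbp level of astrocyte-like cells fell with depth. In the deepest injured astrocyte-like group, with a median of 9965 gene UMIs, it was 15.02 CPM (9.52 to 22.5). The folds that follow are over whole classes, and the part of depth in them was not tested. Mbp was not found in 70 injured endothelial-like cells, where the floor of 3 counts would have been 4.01 CPM. The microglia-like level was 10.6-fold that floor and the astrocyte-like level 7.22-fold. By the counting interval, the endothelial-like level was at most 0.175-fold the astrocyte-like one. The only member UMI in injured endothelial-like cells was 1 of Mog. Injured ependymal-like cells gave 7 UMIs of Mbp in 6 of 144 cells, 4.13 CPM (1.66 to 8.51), and the microglia-like level was 10.2-fold higher (4.75 to 26.3). Mbp and Ptgds were the members that could be counted against astrocyte-like cells. Both were 2-fold or more lower in endothelial-like cells, beside 28.6% of 10921 genes (18.9% were higher), and both were so in ependymal-like cells, beside 19.1% of 11743 genes (19.2% were higher). Injured fibroblast-like cells gave 1 UMI of Mbp, below the floor, or 0.0480-fold the astrocyte-like level (0.0012 to 0.277). Their summed phagocytosis genes stood at 12482 CPM, 1.46-fold the astrocyte-like level (1.42 to 1.49). Mbp was thus not level over the classes of the injured library.

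Among injured microglia-like cells the Mbp level did not climb with the share of UMIs from the 22 phagocytosis genes. It was 58.3 CPM (39.6 to 82.7) in the 43 cells with the lowest share, 27.0 CPM (16.5 to 41.6) in the next 43 and 46.9 CPM (31.4 to 67.4) in the 42 cells with the highest share. Of 18 phagocytosis genes with at least 10 cells on each side, none had a higher Mbp level in cells with a UMI of that gene by the interval of the ratio, and 10 had a lower one, for example Trem2 (0.199, 0.107 to 0.403) and Mertk, a receptor for engulfment (0.411, 0.255 to 0.675). Cells with a UMI of these genes were also deeper, with a median of 15598 against 2503 gene UMIs for Trem2, and the part of depth in these ratios was not tested.

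In the uninjured library, with 31 microglia-like cells and 116919 gene UMIs in all, Mbp gave 5 UMIs, 42.8 CPM (13.9 to 99.8), and Mag gave 4 UMIs in 4 cells, 34.2 CPM (9.32 to 87.6). The Mag level was 7.44-fold that of uninjured astrocyte-like cells (1.95 to 20.2), and injured over uninjured it was 0.155 (0.0446 to 0.675) in microglia-like cells. The myelin sum gave 10 UMIs, a level 2.08-fold that of astrocyte-like cells (0.989 to 3.85). Cd22, a receptor of the same sialic acid-binding family as Mag and its neighbour on the same strand 18833 bases away, was looked at because of its place: 26 of 128 injured and 1 of 31 uninjured microglia-like cells had a UMI of it. Of the cells with Mag, 3 of 9 injured and 0 of 4 uninjured ones had a UMI of Cd22.

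OPC-like cells, the precursors from which oligodendrocytes form, stood apart by Cldn11. In the injured library Cldn11 gave 147 UMIs in 25 of 41 cells, with at most 14 in 1 cell, for 152 CPM (128 to 178), or 20.1-fold the astrocyte-like level (12.1 to 35.4). Mbp gave only 25 UMIs in 18 cells, 25.8 CPM (16.7 to 38.1), a level that differed from that of astrocyte-like cells by less than the counting error. The OPC-like cells were deeper, at a median of 22050 gene UMIs. The deepest astrocyte-like group, with a median of 9965, stood at 15.02 CPM of Mbp (9.52 to 22.5), and the part of depth was not tested. Mobp and Mag gave 2 UMIs each and Mog 1. All 5 injured OPC-like cells with 10 or more myelin UMIs owed most of them to Cldn11 (8 to 14 UMIs) and held UMIs of Pdgfra, the growth factor receptor of precursors (7 to 24).

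Most Ptgds UMIs of the same class came from 1 cell. Ptgds gave 75 UMIs in 8 of 41 cells, 77.4 CPM (60.9 to 97.0), of which 52 were in a single cell, and 24.2 CPM without that cell. Its ratio over astrocyte-like cells was 4.58 (3.06 to 6.96) with it and 1.55 (0.876 to 2.70) without the richest cell of each class. Among Mbp, Cldn11 and Ptgds, which could be compared, Cldn11 and Ptgds were 2-fold or more higher than in astrocyte-like cells, beside 22.0% of 11280 genes, and none was lower, beside 15.7%. Of the 20 other oligodendrocyte genes 12 could be compared, with 7 higher (Bcas1, Cnp, Fa2h, Pllp, Sox10, Tspan2 and Ugt8a) and Aspa, Gpr37 and Mal lower. The 14 uninjured OPC-like cells were too few for most members, with 5 UMIs of Mbp (52.7 CPM, 17.1 to 123) and none of the other 5 genes. Injured OPC-like Cldn11 was 4.79-fold the floor of the uninjured class, which was 31.6 CPM, and the interval of the ratio began at 3.85.

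Fibroblast-like cells, a class to which the Ptgds-making cells of the meninges belong, hardly held it in the injured library. There 43 cells gave 2 UMIs, a count below the floor, and a level 0.164-fold that of astrocyte-like cells (0.0192 to 0.635). With every cell thinned to 1000 UMIs the ratio was 2.35 (0.243 to 11.8), from 2 and 8 UMIs, so its direction is not fixed. The 95 uninjured fibroblast-like cells gave 34 UMIs in 10 cells, 103.5 CPM (71.7 to 145), with at most 10 in 1 cell, or 3.47-fold the astrocyte-like level (2.36 to 4.95). The meninges had been removed before digestion. The injured and uninjured cells did not share all clusters, since 48 of the 95 uninjured cells lay in a cluster without injured cells. Cldn11 gave 16 UMIs in 3 injured fibroblast-like cells, and 9 of those were in a single cell. Mag and Mog had no UMI in this class in either library. The 16 mural-like cells held no UMI of the myelin sum.

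**Figure D3:**
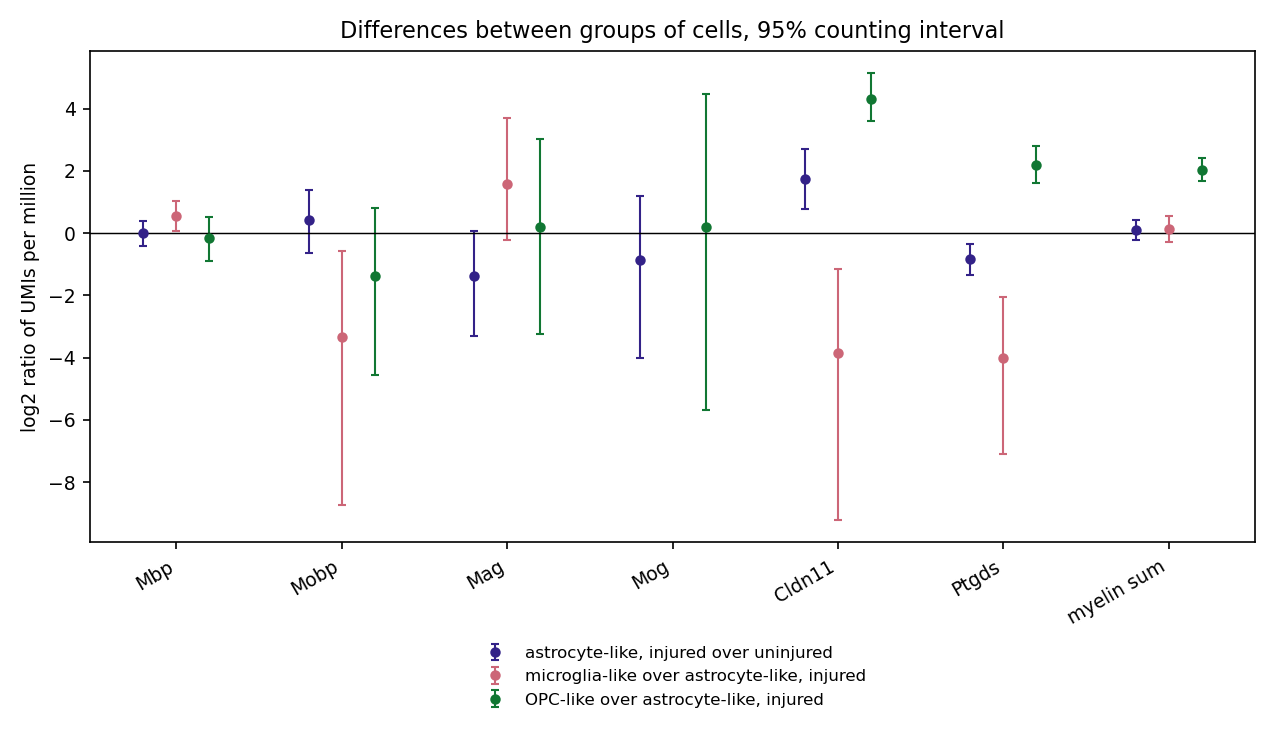
log2 ratio of CPM values (y axis) for each gene and the myelin sum in 3 comparisons, with 95% counting intervals; a ratio with a count of 0 on either side is not drawn. In microglia-like over astrocyte-like cells Mbp lies at 0.55 and Ptgds at -4.00, and in OPC-like over astrocyte-like cells Cldn11 lies at 4.33.

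High levels of all 6 genes lay in the unnamed clusters, which had neuronal genes among their leading genes. Some rested on single cells or overlapped with other classes. All 7 Cldn11 UMIs of injured cluster 4 (172 CPM, 69.3 to 355) were in 1 cell, Mbp there went from 369 to 39.9 CPM without the 3 richest cells, and Mag in uninjured cluster 5 (67.0 CPM, 50.9 to 86.7) overlapped with uninjured microglia-like cells and was 24.6 CPM without its 3 richest cells. Uninjured unnamed cluster 5 held 33.3% of all member UMIs of its library in 6.61% of its cells. Ptgds gave 417 UMIs in 132 of 275 cells, 482 CPM (437 to 530), and the myelin sum 246 UMIs, 284 CPM (250 to 322). A small number of cells carried much of it. The richest cell, with 5813 gene UMIs, held 22 UMIs of Mbp, 24 of Mag, 6 of Mog, 10 of Cldn11, 1 of Mobp and 139 of Ptgds, and none of Snap25 or Gfap. The next richest cells held 25 and 14 myelin UMIs and 47 and 24 of Ptgds. These 3 cells held 41.5% of the myelin UMIs of the cluster, and their Pdgfra count was 0. In the same order they held 27, 18 and 2 UMIs of Mal and 16, 3 and 3 of Cnp, both oligodendrocyte genes. Aqp4, an astrocyte marker, gave 0, 6 and 3 UMIs in them.

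Without these 3 cells the cluster was still above uninjured astrocyte-like cells, at 169 CPM for the myelin sum (142 to 199) and 243 CPM for Ptgds (211 to 278). Mbp was then at 93.8 CPM (74.4 to 117), in 68 of 272 cells. In the same cluster the neuron markers summed to 1751 CPM, against 116 CPM in uninjured astrocyte-like cells. Uninjured unnamed cluster 4 lay between, with 87.7 CPM of the myelin sum (77.1 to 99.5), 85.6 CPM of Ptgds (75.0 to 97.2), 503 CPM of the neuron markers and no cell above 4 myelin UMIs. In the uninjured library myelin and neuronal transcripts were thus both higher in the unnamed clusters than in astrocyte-like cells, and the part of one in the other was not tested. Injured unnamed cluster 4 reached 738 CPM of the myelin sum (498 to 1054) with 30 UMIs in 11 cells, and 1 cell held 22 of them, beside 13 UMIs of Aqp4, the water channel of astrocytes. Its neuron markers, at 246 CPM, were near the 224 CPM of injured astrocyte-like cells, and 28.9% of its UMIs were mitochondrial. Injured unnamed cluster 5 was the reverse, with 3690 CPM of the neuron markers and 101 CPM of the myelin sum (48.4 to 185, from 10 UMIs).

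The members did not keep one ratio to each other over the classes. Mbp made up 69.8% of the myelin sum in uninjured astrocyte-like cells (65.4 to 74.0), 65.0% in injured ones (54.8 to 74.3), 87.0% in injured microglia-like cells (78.3 to 93.1) and 14.1% in injured OPC-like cells (9.35 to 20.1). Cldn11 made up 83.1% in the last (76.7 to 88.3). Mag made up 23.6% in uninjured unnamed cluster 5 (18.4 to 29.4), beside 11.2% in uninjured astrocyte-like cells (8.42 to 14.4), but 24 of its 58 UMIs there were in 1 cell, and 21 of 144 myelin UMIs were Mag without the 3 rich cells.

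**Figure D4:**
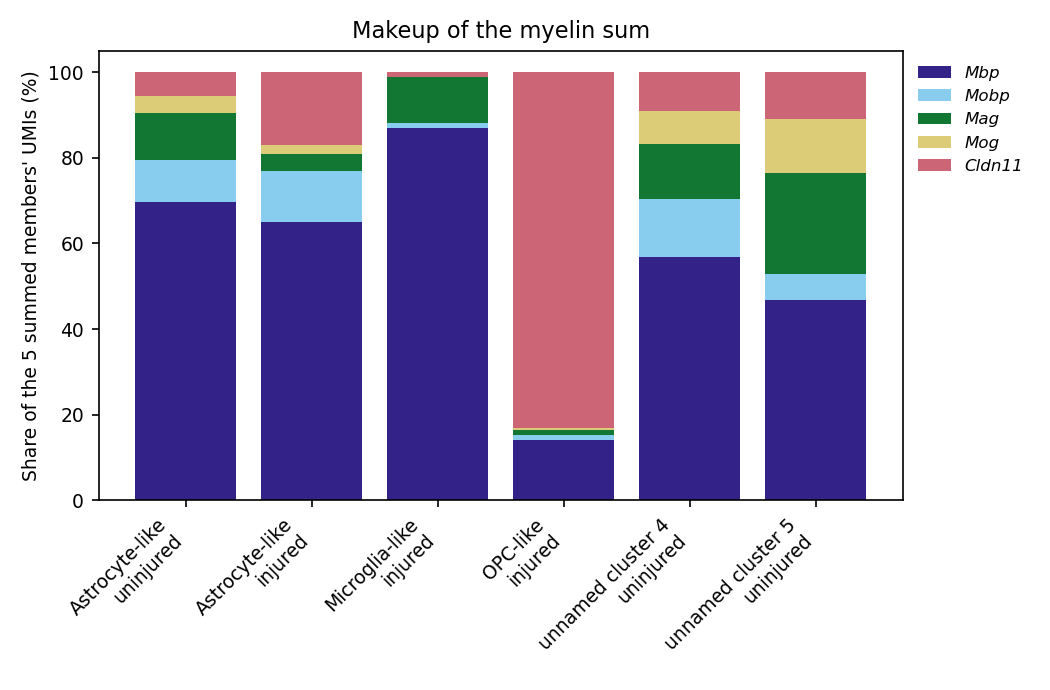
Share of the 5 summed members' UMIs (y axis, percent, stacked bars) that each member gave in 6 groups of cells (x axis). Cldn11 gives 83.1% in injured OPC-like cells, and Mbp gives 87.0% in injured microglia-like cells and 69.8% in uninjured astrocyte-like cells.

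Over the 14 groups of class and library with at least 20 cells, the genes whose log2 level was most like the myelin sum were Camk2b (Pearson r = 0.90), Tango2 (0.86), Ptpa (0.85), Sema4g (0.84) and Unc13a (0.84), and r was 0.64 for Snap25. For Ptgds they were Vsnl1 (0.92), Nefm (0.91), Trnp1 (0.90), Atp6v1g2 (0.88) and Cend1 (0.87), of which Nefm is a neurofilament gene, and r was 0.79 for Snap25. The groups share 2 libraries and differ in depth, and 12633 genes were ranked, so these values are a description.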

How the data were processed

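Whole cells sorted for tdTomato were profiled with the Chromium 3′ v3.1 chemistry, 1 library per condition. The count matrices (UMIs per gene and cell barcode, not normalized) are used as deposited; per the labels the authors made them with Cell Ranger 8.0.1 on mm10, whereas the file headers name version 7.1.0. Neither removal of free RNA nor of doublets is stated for this experiment. The members and lists were chosen with earlier results of these data known, and the rule that names clusters was completed after the clusters were seen.

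The study's stated limits (more than 500 and fewer than 50000 UMIs) were applied to gene UMIs, which left every uninjured barcode and 879 of 919 injured ones. Counts were scaled to 10000 per cell, and 2000 variable genes without the 6 members, 15 principal components and 15 neighbours went into Leiden clustering at resolution 0.5 (scanpy 1.11.5, Python 3.11.15). A cluster was named from a marker list with at least 3 detected markers. UMIs were then summed per class and library and divided by the gene UMIs there. No doublet was removed; leaving out the 5% of cells with the highest Scrublet scores was an alternative. Genes with at least 20 UMIs in both groups together entered counts of 2-fold differences. The genes most like a member were those with the highest Pearson r of log2(CPM + 10), among genes with at least 100 UMIs. Lists held 20 other oligodendrocyte genes, 22 phagocytosis genes and 9 neuron markers. Some genes of these lists are not reported here. Intervals are at 95% (scipy 1.17.1). Scripts were tested on simulated data. Depth ran from 515 to 49940 gene UMIs per kept injured cell and from 503 to 21273 per uninjured cell. Positions are from GENCODE M21. Other alternatives were a finer clustering, other limits on cells, thinning to 1000 UMIs, leaving out rich cells, classes by marker counts, a mean over cells, and pseudocounts.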

Additional observations from a re-analysis of the deposited data

Results flagged for a closer look

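The 40 injured cells with 50000 or more UMIs were outside every comparison, and they held members: 5 UMIs of Mbp in 4 cells, 22 of Cldn11, of which 20 were in 1 cell, and 13 of Ptgds, of which 11 were in 1 cell. Over these cells, whose median was 73304 gene UMIs, Mbp stood at 1.51 CPM (0.489 to 3.52), and Dcn and Col1a2, matrix genes of fibroblasts, at 2852 and 1422 CPM.

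By its summed counts, Ptgds went opposite ways with injury in OPC-like and astrocyte-like cells. In the former 75 UMIs stood against 0, which was 2.45-fold the uninjured floor, and the interval of the ratio began at 1.94. In the latter the ratio was 0.566. This difference between classes was not tested, and 52 of the 75 UMIs lay in 1 cell. Without that cell the injured OPC-like level was 24.2 CPM, below the 31.6 CPM that 3 counts make in the uninjured class, so no direction remained there.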

How the results depend on the processing

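Of 245 values recomputed under other settings, 224 stayed within the counting interval of the reported value, 19 moved beyond it, and 2 whose interval had excluded no difference changed direction. The values that follow are log2 ratios. The myelin sum in injured over uninjured astrocyte-like cells, 0.11 as reported, was 0.95 with cells thinned to 1000 UMIs, 0.55 as a mean over cells and -0.32 with classes made from marker counts. In microglia-like over astrocyte-like cells of the injured library it was 0.13 as reported and -1.13 after thinning. Ptgds in injured over uninjured astrocyte-like cells, -0.82 as reported, was -1.40 with classes from marker counts and -1.65 with the unnamed clusters counted as astrocyte-like. Its weakest value under any other setting was -0.38. Ptgds in fibroblast-like over astrocyte-like injured cells went from -2.61 to 1.23 after thinning, and Mbp in microglia-like over astrocyte-like injured cells from 0.55 to -0.69. Thinning leaves fewer UMIs and gives each cell the same weight. Otherwise the cause was not tested. Counting the unnamed clusters as astrocyte-like, leaving out cluster 6 and leaving out the barcodes found in both libraries were chosen after seeing the data. No paired analysis was possible because the design holds 1 library for the injured and 1 for the uninjured cord. With few UMIs per class, 24 of 84 values of a member in a named class and library exceeded the floor of 3 UMIs.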
